A study of Mus musculus with 10 samples.

Results

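The genes described here are 10 that load, move and store cholesterol and lipoprotein lipid, chosen by name: Apoe, Clu, Abca1, Abcg1, Lcat, Lpl, Lrp1, Npc1, Npc2 and Soat1. All 10 were found among the 19965 genes named in the table, each through 1 probe set, the group of array probes that reads 1 transcript. The samples were cells sorted from papain-dissociated hippocampus of mice heterozygous for Sox1-GFP, a reporter that makes green fluorescent protein (GFP) where the neural stem cell gene Sox1 is active. The old group was GFP-positive, aged 1 year 9 months, with 4 samples. The young mice gave 2 groups of 3: GFP-positive replicates 1, 2 and 3 came at 7, 5 and 4 months of age, and GFP-negative replicates at 7, 7 and 4 months, although the series description puts the young mice at 5 to 7 months. No treatment is recorded, all groups carry the reporter, and the titles call the samples biological replicates without saying whether 1 mouse gave both fractions. Amplified RNA was read on the Affymetrix Mouse Gene 1.0 ST array, and values are on the log2 scale. The 10 samples include no GFP-negative cells of old mice.

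Brain cells exchange cholesterol through lipoprotein particles that are made within the brain, since plasma lipoproteins do not cross the blood-brain barrier. Astrocytes are known to secrete most of the apolipoprotein E (Apoe) and clusterin (Clu, also called apolipoprotein J) of these particles. The transporter Abca1 hands cholesterol and phospholipid to apolipoproteins with little lipid, Abcg1 adds cholesterol to particles already formed, and the enzyme Lcat turns the free cholesterol on a particle into ester. Lipoprotein lipase (Lpl) splits the triglyceride that particles carry, and the receptor Lrp1 takes Apoe-bearing particles into cells. Inside the cell Npc2 and Npc1 pass cholesterol out of the lysosome, and Soat1 makes the cholesterol esters that are stored in lipid droplets.

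The GFP-positive cells of the young hippocampus had more Apoe, Clu, Lcat and Soat1 RNA and less Abcg1 RNA than the GFP-negative cells. Lcat was 6.99-fold higher, Clu 5.31-fold, Soat1 3.85-fold and Apoe 2.40-fold, and Abcg1 was 3.26-fold lower. Abca1, Lpl, Lrp1, Npc1 and Npc2 did not pass the test. Between old and young GFP-positive cells 0 of the 10 genes passed it.

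The test was limma's moderated test over 3 group means of all 10 samples, two-sided, with Benjamini-Hochberg adjustment over all 19965 genes and an adjusted p under 0.05 as the threshold. In the sort comparison (young GFP-positive minus young GFP-negative) 4 of the 10 genes were higher, where 7.68% of all genes were, and 1 was lower, where 9.3% were. In either direction 17% of all genes were called. The 10 genes were chosen with earlier results of these data known, so their counts beside these shares are no independent test. Ranges of the fractions were fully separate for 7 of the 10 genes and for 38.9% of all genes. The median log2 difference of the 10 genes was 0.24, and that of all genes was 0.098. In a bulk sample, fewer cells of a type and less RNA per cell cannot be told apart.

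**Figure D1:**
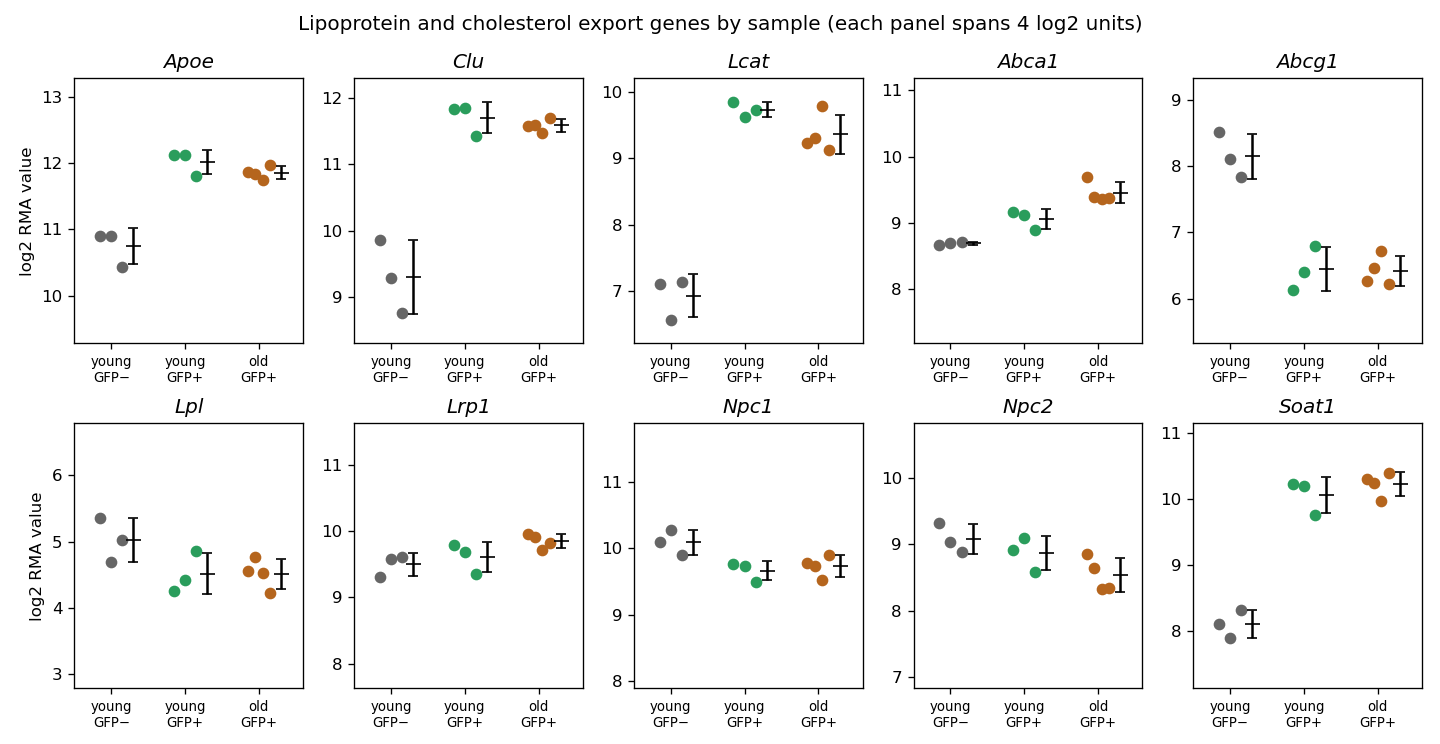
Values of the 10 genes by sample. Each point is 1 sample (y axis, log2 RMA value, each panel spanning the same range around its own centre), in the order of replicate numbers within a group (x axis), and the black mark and bar beside the points are the mean and SD of the group. For Apoe, Clu, Lcat and Soat1 the 7 GFP-positive samples lie above the 3 GFP-negative ones, and for Abcg1 below them.

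The sorted fractions were checked against marker genes of hippocampal cell types, as the mean log2 value of each list. The source labels call the GFP-positive cells neural stem and progenitor cells. Of 12 astrocyte markers 11 were higher in young GFP-positive cells, with list means from 10.27 to 10.74 against 7.31 to 8.18 in GFP-negative cells, and of 8 progenitor markers 5 were higher (list means of at least 7.77 against at most 6.82). Sox1 itself did not pass the test (log2 difference 0.28, limma adjusted p = 0.123). Of 12 microglia markers 11 were lower (6.15 to 6.89 against 9.44 to 9.95), as were 10 of 10 markers of mature oligodendrocytes (7.70 to 8.69 against 10.73 to 11.08), 7 of 7 of oligodendrocyte precursors (6.85 to 7.42 against 8.61 to 9.36) and 10 of 10 of endothelium (5.75 to 6.31 against 7.26 to 8.92). Of 10 mural and fibroblast markers 5 were lower and 1 higher, of 12 neuronal ones 2 lower and 1 higher, and of 3 erythroid ones 2 lower. Of 10 choroid plexus and ependymal markers 0 passed the limma test (2 at an unadjusted p under 0.05), and the list was high in both young replicate 1 samples (7.68 and 7.58, against 5.68 to 6.37 in the other 4 young samples). In a list of phagocyte state genes, of 6 measured, Axl was higher and Itgax lower. The deposited values include no detection call, so no marker can be called absent. These cell type differences run along the same groups as the results below, and their part in them was not tested.

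**Figure D2:**
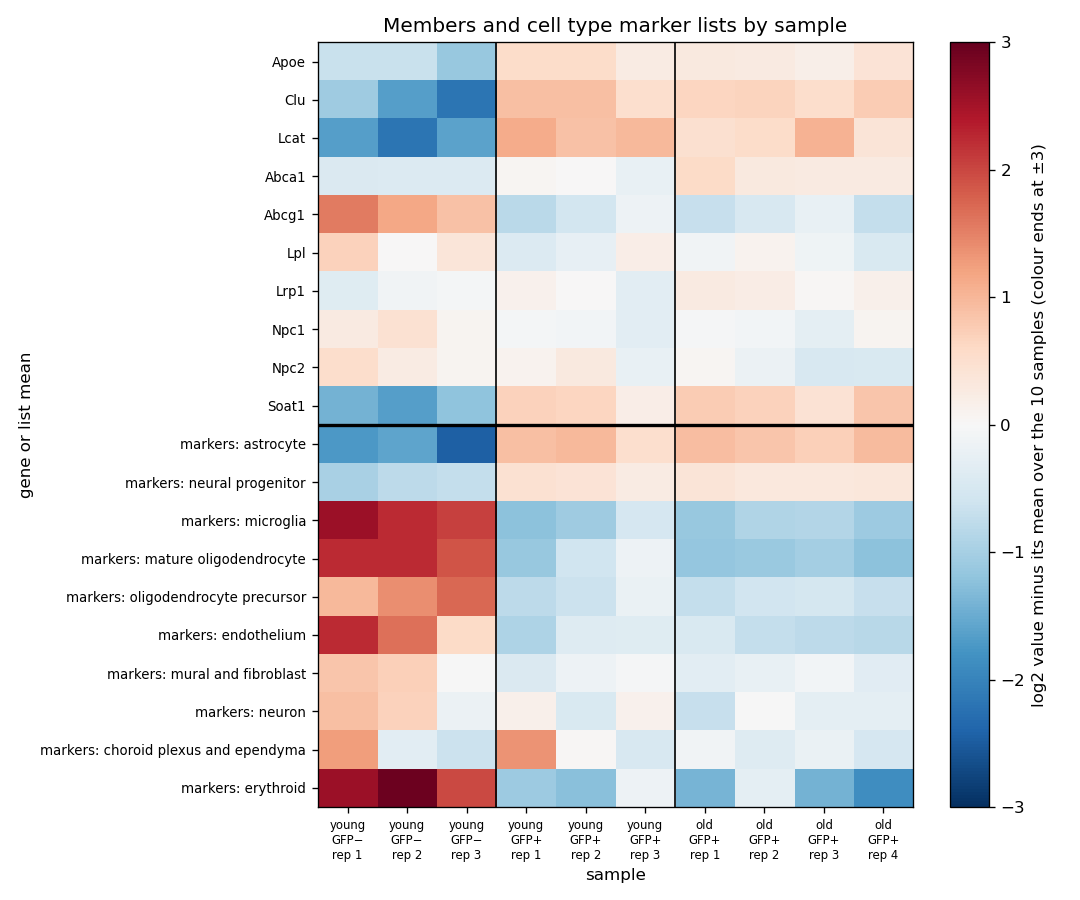
The 10 genes (upper rows) and the mean of each cell type marker list (lower rows) in every sample (columns), as log2 value minus the mean over the 10 samples, on a colour scale that ends at 3 in either direction. In the GFP-negative columns Apoe, Clu, Lcat, Soat1 and the astrocyte list are below their means, and Abcg1 and the microglia, oligodendrocyte and endothelial lists are above theirs.

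Promoter windows, from 250 bases before to 50 bases after the start site, were in the RefSeq table (build GRCm38.p6) for 6 of the 10 genes. Those of the called genes Apoe, Lcat and Soat1 are shown to let the genes that were higher together be compared, and that of Abca1 for the receptor element in it. They are 5′ to 3′, and capitals mark matches, on either strand, to 6 motifs: the TATA box (TATAAA, in 13.6% of all 32851 windows of the table), the GC box (GGGCGG, 35.7%), the CCAAT box (CCAAT, 37.4%), the E-box (CACGTG, 7.15%), a direct repeat of the kind bound by the cholesterol-sensing LXR receptors (GGTNA, any 5 bases, then GGTCA, 0.207%) and the palindrome of NFI factors (TTGGC, any 5 bases, then GCCAA, 0.0365%). The letters of the LXR repeat were chosen with the Abca1 sequence in view.
Apoe, chr7:19699139-19699438, minus strand: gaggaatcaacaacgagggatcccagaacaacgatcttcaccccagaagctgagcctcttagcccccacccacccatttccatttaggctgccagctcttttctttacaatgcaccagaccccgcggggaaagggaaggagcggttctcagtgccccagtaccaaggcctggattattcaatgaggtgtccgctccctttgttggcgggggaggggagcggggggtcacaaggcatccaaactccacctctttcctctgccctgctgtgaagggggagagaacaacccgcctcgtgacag
Lcat, chr8:105943353-105943652, minus strand: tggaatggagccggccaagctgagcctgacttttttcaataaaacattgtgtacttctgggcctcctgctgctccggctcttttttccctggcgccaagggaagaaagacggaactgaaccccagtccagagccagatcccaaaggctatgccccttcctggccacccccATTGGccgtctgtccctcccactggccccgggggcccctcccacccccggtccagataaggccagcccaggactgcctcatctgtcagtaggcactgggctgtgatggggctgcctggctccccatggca
Soat1, chr1:156474279-156474578, minus strand: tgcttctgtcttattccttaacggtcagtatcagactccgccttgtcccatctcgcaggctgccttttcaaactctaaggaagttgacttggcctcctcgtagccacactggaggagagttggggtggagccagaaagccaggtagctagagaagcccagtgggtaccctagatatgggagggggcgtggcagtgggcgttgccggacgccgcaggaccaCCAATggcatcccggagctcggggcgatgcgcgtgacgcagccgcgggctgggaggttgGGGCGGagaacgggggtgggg
Abca1, chr4:53159846-53160145, minus strand: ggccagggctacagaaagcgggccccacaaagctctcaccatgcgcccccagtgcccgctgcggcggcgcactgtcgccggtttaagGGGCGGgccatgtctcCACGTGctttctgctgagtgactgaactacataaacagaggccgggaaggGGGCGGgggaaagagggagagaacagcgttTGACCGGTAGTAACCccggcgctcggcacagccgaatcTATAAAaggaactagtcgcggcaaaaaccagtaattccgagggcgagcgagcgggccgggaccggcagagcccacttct
The Abca1 window held the LXR repeat on the reverse strand, its first printed base at -67 from the start site, beside a TATA box at -29, GC boxes at -163 and -97 and an E-box at -147, a palindrome that reads the same on both strands. No 2 of these matches overlapped. Lcat had a CCAAT box at -80 (reverse strand) and Soat1 one at -30 (forward strand) and a GC box at 29. The Apoe window, the most upstream of 3 in the table, held no match. A match here is a run of letters and was not tested as a site.

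Apoe, the main apolipoprotein of the brain, had values of 10.91, 10.91 and 10.44 in GFP-negative replicates 1, 2 and 3, and 12.12, 12.12 and 11.81 in young GFP-positive replicates 1, 2 and 3. Every GFP-positive sample lay above every GFP-negative one, and replicate 3 was the lowest of both fractions. The group means were 12.02 ± 0.18 (SD, n = 3) and 10.75 ± 0.27 (SD, n = 3), a log2 difference of 1.27 ± 0.15 (SE, limma adjusted p = 0.000133). In old GFP-positive cells Apoe had 11.87, 11.84, 11.75 and 11.98. This range lies within that of the young GFP-positive samples apart from old replicate 3, the lowest of the 7. The old mean was 11.86 ± 0.10 (SD, n = 4), and the log2 difference from young of -0.16 ± 0.14 (SE) did not pass (limma adjusted p = 0.682). Apoe was near the top of the array range: between 98.7% and 99.95% of genes on each array had lower values, and the highest gene value of an array lay between 12.41 and 12.79.

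Clu encodes a secreted chaperone that also rides on lipoprotein particles. It had 9.86, 9.28 and 8.75 in GFP-negative replicates 1 to 3 and 11.84, 11.84 and 11.43 in young GFP-positive replicates 1 to 3. The groups stood apart, and the GFP-negative samples spread more widely than those of any other group of this gene (SD 0.55, against 0.24 and 0.10). The log2 difference was 2.41 ± 0.23 (SE, limma adjusted p = 2.85e-05), between means of 11.71 ± 0.24 (SD, n = 3) and 9.30 ± 0.55 (SD, n = 3). GFP-negative replicate 1, the highest in Clu, also had the highest choroid plexus level of its fraction (7.58, against 6.01 and 5.68), and replicate 3, the lowest, had the lowest astrocyte level (7.31, against 8.04 and 8.18). Without both young replicate 1 samples Clu remained past the test. In the remaining young samples the choroid plexus marker Ttr was still uneven, with 9.26 and 9.53 in replicate 2 against 5.88 and 6.03 in replicate 3. The part of choroid plexus and astrocyte content in the Clu values was not tested. Old GFP-positive samples had 11.58, 11.60, 11.47 and 11.70, all inside the young GFP-positive range, with a log2 difference of -0.12 ± 0.22 (SE, limma adjusted p = 0.842).

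The exporters differed in direction. Abcg1 had 8.51, 8.10 and 7.83 in GFP-negative replicates 1 to 3 and 6.14, 6.40 and 6.80 in young GFP-positive ones. All GFP-positive values were below all GFP-negative ones, with a log2 difference of -1.70 ± 0.21 (SE, limma adjusted p = 0.000184) between means of 6.44 ± 0.33 (SD, n = 3) and 8.15 ± 0.34 (SD, n = 3). Within both young fractions its order of samples was that of the microglia, endothelial, mature oligodendrocyte and mural and fibroblast marker lists alike, which describes 3 samples each and singles out no list. Among the old samples the order was shared by the mature oligodendrocyte and mural and fibroblast lists and not by the microglia and endothelial ones. In old cells Abcg1 had 6.26, 6.46, 6.72 and 6.23, inside the young GFP-positive range, and a log2 difference of -0.03 ± 0.20 (SE, limma adjusted p = 0.966).

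Abca1 was almost level among the GFP-negative samples, at 8.67, 8.69 and 8.70, and had 9.17, 9.12 and 8.89 in young GFP-positive replicates 1 to 3. The groups did not overlap, but the log2 difference of 0.37 ± 0.12 (SE) did not pass (limma adjusted p = 0.0655). It passed without old replicate 1 (limma adjusted p = 0.0434) or young GFP-positive replicate 3 (0.0440), with array weights (0.0111) and after a further quantile normalization (0.0135). Old GFP-positive samples had 9.69, 9.39, 9.37 and 9.38, each above every young GFP-positive sample. Abca1 was the 1 gene of the 10 whose old and young GFP-positive values did not overlap, as did not 10.9% of all genes. Its mean was 9.46 ± 0.16 (SD, n = 4) in old and 9.06 ± 0.15 (SD, n = 3) in young GFP-positive cells. The log2 difference of 0.40 ± 0.12 (SE) had an unadjusted p of 0.00568 and an adjusted p of 0.302 in limma. Without old replicate 1 the log2 difference was 0.32 (limma adjusted p = 0.449). Young GFP-negative, young GFP-positive and old GFP-positive samples thus formed 3 separate ranges for this gene, of which neither step passed the test.

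Of the enzymes that act on particles, Lcat had the largest difference of the 10 genes. It had 7.10, 6.56 and 7.13 in GFP-negative replicates 1 to 3 and 9.86, 9.63 and 9.72 in young GFP-positive ones. No sample of one fraction came near the other. The log2 difference was 2.81 ± 0.20 (SE, limma adjusted p = 3.06e-06), with means of 9.74 ± 0.12 (SD, n = 3) and 6.93 ± 0.32 (SD, n = 3). In old cells Lcat had 9.23, 9.31, 9.79 and 9.12. Old replicate 3 lay among the young samples and the other 3 old samples below them all. The old mean was 9.36 ± 0.30 (SD, n = 4), and the log2 difference of -0.37 ± 0.18 (SE) did not pass (unadjusted p = 0.0677, limma adjusted p = 0.517). Old replicate 3 was the 1 sample with a high value of Xist, the RNA of the silent X chromosome of females (11.90, against 4.95 to 5.69 in the other 9). The same sample had the lowest astrocyte marker level of the old samples (10.50). Sex and cell content cannot be told apart in 1 sample, and their part in its Lcat value was not tested. Without old replicate 3 the log2 difference of Lcat was -0.51 (limma adjusted p = 0.422).

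Lpl had 5.35, 4.69 and 5.02 in GFP-negative replicates 1 to 3, and 4.26, 4.42 and 4.86 in young GFP-positive ones, which overlapped. These were dim values: between 8.50% and 24.6% of the genes on each array had lower ones, and the deposited values include no detection call. The log2 difference of -0.51 ± 0.21 (SE) did not pass (limma adjusted p = 0.123), and it passed after a further quantile normalization (-0.63, limma adjusted p = 0.0497). Old GFP-positive values of 4.56, 4.77, 4.53 and 4.22 spread around the young ones (limma adjusted p = 0.994).

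Lrp1, the receptor for Apoe-bearing particles, had 9.30, 9.58 and 9.61 in GFP-negative and 9.79, 9.69 and 9.35 in young GFP-positive replicates 1 to 3. The fractions overlapped, and the log2 difference of 0.11 had a 95% confidence interval from -0.20 to 0.43 (limma adjusted p = 0.598). Old GFP-positive samples had 9.95, 9.90, 9.72 and 9.82, of which 3 exceeded every young one, at a log2 difference of 0.24 ± 0.13 (SE, limma adjusted p = 0.553).

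The lysosomal pair did not pass either. Npc1, the membrane protein of the pair, had 10.09, 10.28 and 9.90 in GFP-negative and 9.76, 9.73 and 9.50 in young GFP-positive replicates 1 to 3. The GFP-positive values were all below the others, and the log2 difference of -0.43 ± 0.14 (SE) had a limma adjusted p of 0.0585. Settings under which it passed included those without old replicate 3 (limma adjusted p = 0.0457) or GFP-negative replicate 3 (0.0353), with array weights (0.00642) and after a further quantile normalization (0.0469). Npc2, the soluble partner, had 9.33, 9.04 and 8.89 against 8.92, 9.09 and 8.58, which overlapped (log2 difference -0.22, 95% confidence interval -0.63 to 0.19, limma adjusted p = 0.434). In old cells Npc1 had 9.79, 9.74, 9.52 and 9.90 (limma adjusted p = 0.835), and Npc2 had 8.85, 8.64, 8.32 and 8.35. The last 2 of these Npc2 values were below every young GFP-positive one, at a log2 difference of -0.33 ± 0.17 (SE, limma adjusted p = 0.538).

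Soat1, the ester-forming enzyme, had 8.12, 7.89 and 8.33 in GFP-negative and 10.23, 10.20 and 9.75 in young GFP-positive replicates 1 to 3. The fractions were far apart, with a log2 difference of 1.94 ± 0.17 (SE, limma adjusted p = 1.41e-05) between means of 10.06 ± 0.27 (SD, n = 3) and 8.11 ± 0.22 (SD, n = 3). Old GFP-positive samples had 10.30, 10.24, 9.97 and 10.38, of which 3 were above every young one (log2 difference 0.17 ± 0.16, SE, limma adjusted p = 0.699).

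Some samples moved several of these genes at once. Among the young GFP-positive samples replicate 3, from the 4-month-old mouse, was the lowest in Apoe, Clu, Abca1, Lrp1, Npc1, Npc2 and Soat1 and the highest in Abcg1 and Lpl. It also had the lowest astrocyte level of the 3 (10.27, against 10.67 and 10.74) and the highest microglia (6.89), mature oligodendrocyte (8.69) and oligodendrocyte precursor (7.42) levels. Without both 4-month-old samples the genes Apoe, Clu, Lcat, Soat1 and Abcg1 still passed, a setting added after the values had been seen. Among the old samples replicate 3 was likewise the lowest in Apoe, Clu, Abca1, Lrp1, Npc1, Npc2 and Soat1 and the highest in Abcg1. It was the highest in Lcat as well, and not in Lpl. Its astrocyte level (10.50) was the lowest of the old samples. Its microglia (6.51), mature oligodendrocyte (7.82) and oligodendrocyte precursor (7.10) levels were the highest of them. No other sample had a high value of Xist, which was 11.90 in old replicate 3. The part of the cell type markers and of sex in the spread was not tested.

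**Figure D3:**
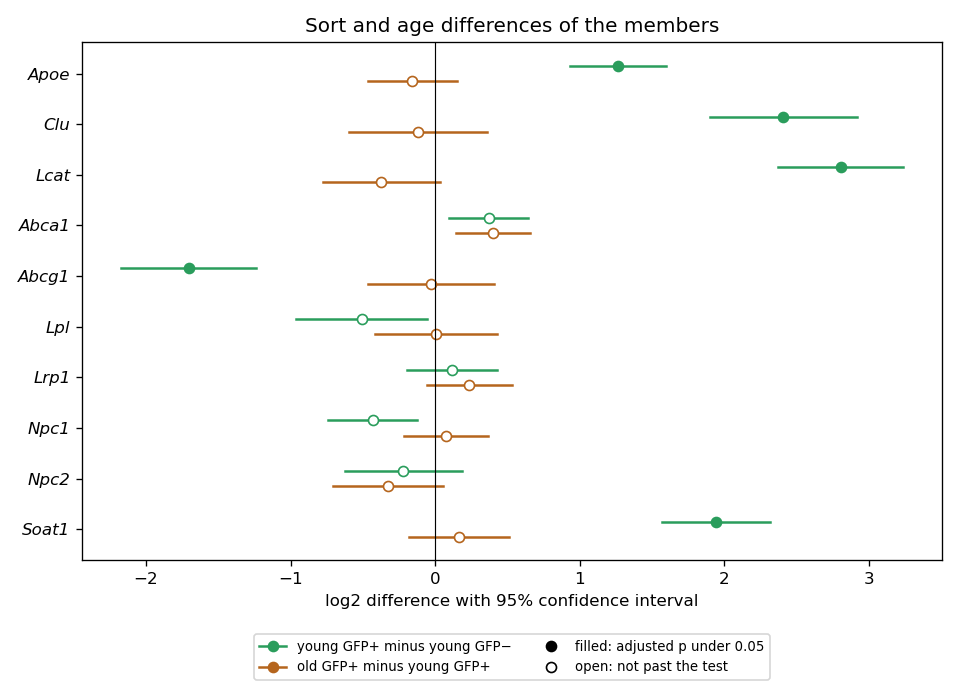
Log2 differences of the 10 genes (x axis, with limma's 95% confidence interval as a line) for young GFP-positive minus young GFP-negative (green) and old minus young GFP-positive (brown). Filled points passed an adjusted p of 0.05: Apoe, Clu, Lcat and Soat1 to the right and Abcg1 to the left, all in the sort comparison.

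The age comparison (old minus young GFP-positive) shares its young samples with the sort comparison. Of its samples only old replicate 3 had a high Xist value, and the part of sex in the age values was not tested. Over all genes 0.015% were called by limma, the 3 genes Atf3, Prmt1 and Svbp, all lower in old cells and named here after their values were seen. The largest age difference of the 10 in size, that of Abca1, was reached or passed by 8.48% of all genes. At an unadjusted p under 0.05 there were 10.2% of all genes and 1 of the 10 described here, Abca1. Of the 99 cell type marker genes measured 0 were called by limma with age (5 at an unadjusted p under 0.05). Of these 5, 3 were among the 10 mature oligodendrocyte markers (Cnp, Mag and Mog, named after their values were seen), all 10 of which had negative log2 differences, with a median of -0.48. The list means were 7.61 to 7.82 in old and 7.70 to 8.69 in young GFP-positive samples, and their part in the age values of the 10 genes was not tested. The median log2 difference of the 10 genes was -0.01, against 0.053 for all genes. The 95% confidence interval of the age difference, not adjusted for the number of genes, ran from 0.14 to 0.65 for Abca1, the 1 of the 10 that did not include 0. It ran from -0.47 to 0.15 for Apoe, from -0.60 to 0.36 for Clu, from -0.46 to 0.41 for Abcg1, from -0.77 to 0.03 for Lcat and from -0.42 to 0.43 for Lpl. For Lrp1 it was -0.06 to 0.53, for Npc1 -0.21 to 0.36, for Npc2 -0.71 to 0.05 and for Soat1 -0.18 to 0.51. Old GFP-positive and young GFP-negative samples differ in both age and fraction and were not tested against each other. Their values did not overlap for 9 of the 10 genes, Lpl being the exception, and for 45.8% of all genes.

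The genes with the profiles nearest to those of the 5 called genes were found by the root mean square difference of centred log2 values over the 10 samples, which lie mostly along the fraction, so that many genes come close. For Apoe they were Cpe, a carboxypeptidase of peptide hormones (0.066), and Gabbr1, a subunit of the GABA-B receptor (0.076). For Clu they were S1pr1, a receptor of sphingosine-1-phosphate (0.13), and Pygb, the brain glycogen phosphorylase (0.15). For Lcat they were Slc7a10, an amino acid transporter of astrocytes (0.18), and Gdpd2 (0.24). For Soat1 it was Drp2 (0.17). For Abcg1 they were Hcls1, a signalling protein of blood cells (0.12), and Ucp2, a mitochondrial carrier (0.13). All of these were higher in the young GFP-positive fraction except Hcls1 and Ucp2, which were lower.

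Beyond the 10 genes, 69 others of lipoprotein and sterol handling were read, in 7 lists by role. These lists too were chosen with earlier results known, so their counts beside all genes are no independent test. In the sort comparison 12 of 69 (17.4%) were higher and 12 (17.4%) lower by limma, where 7.68% and 9.3% of all genes were. The median log2 difference of the 69 was 0.098, and that of all genes was 0.098. In the age comparison 0 of 69 were called by limma (4 at an unadjusted p under 0.05).

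Among apolipoproteins and lipid transfer proteins 3 of 9 were higher and 1 lower. Apod, an apolipoprotein that oligodendrocytes and fibroblasts also make, was lower by 3.15 ± 0.30 (SE) on the log2 scale (limma adjusted p = 2.56e-05), with 10.92 ± 0.13 (SD, n = 3) in GFP-negative and 7.77 ± 0.62 (SD, n = 3) in GFP-positive cells. Apoc1 (log2 difference 1.12), Apoc3 (0.71) and the transfer protein gene Mttp (0.97) were higher, with limma adjusted p from 0.00651 to 0.0271. Their group means in the 2 fractions lay between 5.60 and 6.80, where the medians of the arrays were 6.54 to 6.67. The call of Apoc1 was lost without GFP-negative replicate 2 or 3 or GFP-positive replicate 2 (limma adjusted p = 0.111, 0.0617 and 0.101), and that of Mttp without either young replicate 1 (0.0534 and 0.0513). The call of Apoc3 was lost without both young replicate 1 samples (limma adjusted p = 0.0740). Of the lipid transporters of the ABC family 3 of 8 were lower and 0 higher. Abca9 had a log2 difference of -3.31, Abca8a of -2.03 and Abca2, a transporter of oligodendrocytes, of -1.08, with limma adjusted p from 2.43e-06 to 0.000744.

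Receptors and their partners went both ways, 3 of 13 higher and 3 lower. Sorl1, a sorting receptor that binds Apoe and the amyloid precursor protein, had a log2 difference of 1.20 ± 0.16 (SE), and Lrp8, the receptor of reelin and Apoe, of 1.10 ± 0.15 (SE). Vldlr, the other reelin receptor, had -1.58 ± 0.14 (SE, limma adjusted p = 1.82e-05), and Mylip, a ligase that marks lipoprotein receptors for degradation, -1.30 ± 0.17 (SE). Lrp1b had -0.39 (limma adjusted p = 0.0496), a call that held under 8 of 22 alternatives and was lost among others without any 1 of old replicates 1, 2 and 4, young GFP-positive replicates 1, 2 and 3 and GFP-negative replicates 2 and 3 (limma adjusted p from 0.0562 to 0.188).

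Of the lipases and their partners 1 of 7 was higher and 0 lower: Angptl4, a secreted inhibitor of Lpl, with 7.04 ± 0.24 (SD, n = 3) against 6.10 ± 0.28 (SD, n = 3), a log2 difference of 0.94 (limma adjusted p = 0.00211). The regulators of sterol synthesis Srebf1 (0.77, limma adjusted p = 0.00172) and Srebf2 (0.67, 0.00823) were the 2 of 10 sterol regulators that were higher, and 0 were lower. Among oxysterol and ester enzymes 3 of 7 were higher and 2 lower. Cyp7b1, a hydroxylase of oxysterols and steroids, had 8.67 ± 0.27 (SD, n = 3) against 6.23 ± 0.73 (SD, n = 3), 5.43-fold higher (limma adjusted p = 0.000183). Cyp46a1, known as the neuronal enzyme that lets the brain clear cholesterol as an oxysterol, had a log2 difference of 0.82 and the second esterifying enzyme Soat2 one of 0.47, the latter lost without GFP-negative replicate 1 or 2 (limma adjusted p = 0.0608 and 0.0567). Nceh1, a cholesterol ester hydrolase of macrophages, had -1.66 ± 0.24 (SE), in the direction opposite to Soat1, and Cyp27a1, a mitochondrial sterol hydroxylase, -0.98 ± 0.14 (SE).

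Of 15 genes of sterol transport within the cell 3 were lower and 0 higher: Cav1, the caveolar protein of endothelium (-1.62, limma adjusted p = 3.91e-05), Stard3, a sterol carrier of late endosomes (-0.82), and the oxysterol-binding protein gene Osbp (-0.57). Leaving out young GFP-positive replicate 3 ended the call of Stard3 (limma adjusted p = 0.0591). That of Osbp was lost without GFP-negative replicate 1 or 2 (0.0906 and 0.117) or young GFP-positive replicate 2 or 3 (0.0895 and 0.0960). The marker lists given above ran along the same fractions as all of these genes.

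**Figure D4:**
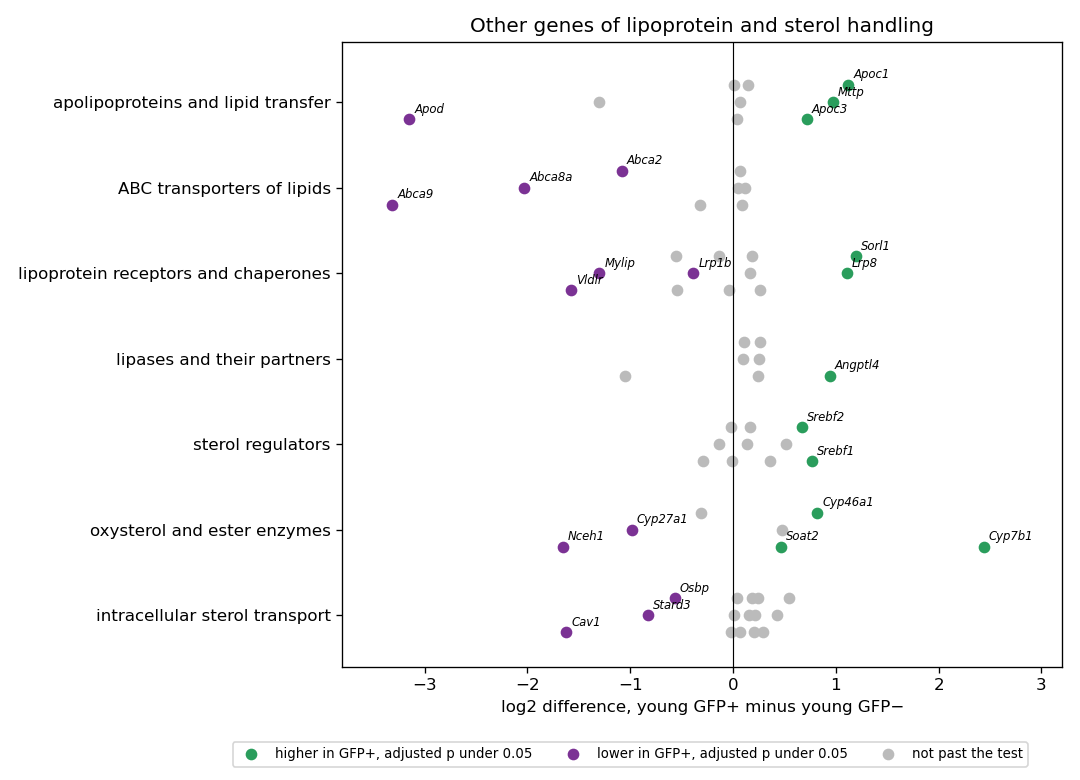
Log2 differences, young GFP-positive minus young GFP-negative (x axis), of other genes of lipoprotein and sterol handling, 1 point per gene shown and 1 row per list. Green points were higher and purple points lower at a limma adjusted p under 0.05, with their names, and grey points did not pass. The called points fall on both sides of 0 in the apolipoprotein, receptor and oxysterol rows, and the called transporters lie to the left. Grey points lie on both sides in other rows as well.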

How the data were processed

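The deposited table holds log2 values. Per the submitters' processing notes and the series description, the authors normalized the arrays by RMA, which includes a quantile step, with probes grouped by RefSeq gene of mm9. They had removed 1 young array whose fold changes were skewed.

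Of 31672 probe sets, 24590 matched 1 symbol in a RefSeq table of GRCm38.p6, used for names only, and 7082 matched none. The probe set with the highest mean stood for each of 19965 genes. Genes were tested with limma 3.58.1 in R 4.3.3 (7 residual and 4.07 prior degrees of freedom). SAM, the method named by the submitters, was not run. The correlation across genes between arrays of a group lay between 0.967 and 0.986. Precision is limited by how few arrays there are. SE is the moderated standard error.

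The 10 genes and the lists were chosen with earlier results of these data known. Named were the 10 genes, up to 3 called genes per direction in each pathway list, and the 2 nearest profiles of each gene called, of which 2 genes are not reported here. Alternatives changed 1 choice at a time.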

Additional observations from a re-analysis of the deposited data

Results flagged for a closer look

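Abca1 in old GFP-positive replicate 1 had a value of 9.69, apart from the other 3 old samples at 9.37 to 9.39. The gap to the nearest was 0.93 of the whole range of the 4 samples, above Dixon's 95% critical value. Chance marks about 1 in 20 such groups, and this was 1 of 21 examined. The same sample had the highest endothelial marker level of the old samples (6.21, against 5.84 to 5.96) and the lowest neuronal one (6.77, against 7.16 to 7.44), and a Ttr value of 7.83 against 6.35 to 6.44. The part of these in the Abca1 value was not tested. Without this sample the log2 difference of Abca1 with age was 0.32 (limma adjusted p = 0.449).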

How the results depend on the processing

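The calls of Apoe, Clu, Lcat, Soat1 and Abcg1 in the sort comparison held, in the same direction, under all 22 alternatives, and in the age comparison 0 of the genes tested among the 10 were called under any of 21 (Lpl, removed by the filter on dim genes, was tested under 20). Of the 24 other pathway genes called, 16 passed under every alternative. The number of the 10 genes past the sort test was 8 after a further quantile normalization. Over all genes the sort comparison gave 5736 with array weights and 1841 without both young replicate 1 samples. In the age comparison, 0 genes passed with only the 2 groups compared, a mean-variance trend, a further quantile normalization or the replicate block, 20 with array weights, 5 with the mean of all probe sets, with every probe set on its own or without both young replicate 1 samples, 1 without both 4-month-old samples, and between 0 and 9 when 1 sample was left out. With the replicate number as a block (replicate block) the sort comparison gave 3285 genes and Npc1 was called as well (-0.43, limma adjusted p = 0.0238). Deviations of same-numbered young samples correlated with r of 0.124, 0.021 and 0.191, and the numbers were not taken to pair the samples. The choroid plexus marker Ttr did run by number in young GFP-positive and GFP-negative samples. It had 12.59 and 12.69 in replicate 1, 9.53 and 9.26 in replicate 2, and 6.03 and 5.88 in replicate 3. The titles give replicate 2 different ages in the fractions, 5 and 7 months, so whether same-numbered samples share a dissection cannot be told. Signs of uncalled age differences turned for Abcg1 (6 alternatives), Lpl (7) and Npc1 (2), and of the sort difference for Lrp1 (1). The cause of these changes was not tested.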
